A study of Homo sapiens with 6 samples.

Results

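The genes described here are 35 mesenchymal markers and factors of the epithelial-mesenchymal transition (EMT), out of 26336 named genes measured. They were chosen by name: 8 transcription factors of the ZEB, SNAI, TWIST and PRRX families, 5 genes of TGF-beta signalling, 8 genes that mark mesenchymal cells, and 14 genes of the extracellular matrix. RNA was sequenced in bulk from HCT116 and SW620, both established human colorectal carcinoma lines grown in DMEM with 10% FBS. In each line, 1 control library carried the hairpin vector pLKO and 2 libraries carried a short hairpin RNA against TEAD4, the DNA-binding partner of the coactivators YAP and TAZ. Whether a line's knockdown libraries are separate cultures, or carry separate hairpins, is not in the labels, so every p-value measures the spread between these libraries, which may be technical. Both knockdown libraries of a line are compared with the same control, and they are numbered as in the deposited columns.

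In EMT, epithelial cells loosen their junctions and take on properties of migratory mesenchymal cells. SNAI, ZEB and TWIST factors bind E-box sequences and repress epithelial genes such as the one for E-cadherin, while TGF-beta, acting through its receptors and SMAD proteins, is a well known inducer of these factors. In colorectal tumours, collagens and other matrix genes are made mostly by fibroblasts of the stroma, although carcinoma cells can express some of them.

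Depth ranged from 15778571 to 18859715 reads on named genes per library. TEAD4 (chr12:2959330-3040673, plus strand, GRCh38) stood at 355 normalized counts in the HCT116 control and at 68.2 and 68.6 in knockdown libraries 1 and 2. The SW620 control had 1140 and its knockdown libraries had 268 and 234. TEAD4 was thus at 19.2% to 23.5% of its control in all 4 knockdown libraries. A normalized count is the number of reads of a gene divided by a size factor of the library. The epithelial genes CDH1 (E-cadherin) and EPCAM were expressed in both lines. CDH1 ranged from 2352 to 2784 normalized counts in HCT116 and from 1452 to 2261 in SW620. EPCAM ranged from 2589 to 5606 in HCT116 and from 6509 to 8350 in SW620. Not all epithelial genes were shared. GRHL2 had 213 to 624 reads in HCT116 and 1 to 4 in SW620. RAB25 had 894 to 1423 and 2 to 13, and CLDN7 3188 to 5621 and 50 to 113. OVOL2 went the other way, with 12 to 21 reads in HCT116 and 55 to 125 in SW620. These genes are named for their difference between lines. Of the colon epithelial markers, CDX1 had 0 reads in every library. CDX2 had 82 to 231 reads in HCT116 and 89 to 421 in SW620. KRT20 had more reads in HCT116 (41 to 59) than in SW620 (7 to 20), and CDH17 fewer (8 to 14 against 53 to 201). VIL1, an intestinal brush border gene, had at most 2 reads in any HCT116 library and at least 4749 in each SW620 library. PTPRC, the pan-leukocyte marker, had 0 reads in all SW620 libraries and at most 3 in HCT116.

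SW620 knockdown library 1 stood apart for 5 of the 14 matrix genes, each with at most 81 reads in any SW620 library. It held 0 reads of SPARC, COL1A2, COL3A1, COL5A1 and DCN, which summed to 106 reads in the SW620 control and 166 in SW620 knockdown library 2. In that library a count of 0 allows up to 3 reads, or 2.97 normalized counts, per gene. Of all 26336 genes, 50 (0.190%) had 0 reads in that library and at least 5 in each of the other SW620 libraries. COL1A2, SPARC and COL3A1 were 3 of the 10 with most reads among these 50. The others of the 10 were FSTL1, MMP2, MMP3, GREM1, PNMA2, ANKRD53 and ALK. In the other 5 libraries the same pattern was met by 9 to 60 genes, of which 0 were among the 35: the share of all genes was 0.0532%, 0.163% and 0.228% in the HCT116 control and knockdown libraries 1 and 2, 0.0342% in the SW620 control and 0.0380% in SW620 knockdown library 2. Among fibroblast markers outside the 35 genes, COL6A3 had 35, 5 and 47 reads (SW620 control, then knockdown libraries 1 and 2), FAP had 0, 0 and 4, and PDPN and MFAP5 had 0 in all SW620 libraries. FBLN1, the most abundant of them, had 1440, 827 and 669 reads and CD248 had 4, 2 and 3. The part of these fibroblast markers in the results below was not tested. Among the other matrix genes, TNC had 7238 reads, TGFBI 3272, COL6A1 667, LUM 495 and FN1 479 in SW620 knockdown library 1. In bulk RNA, fewer cells of a type and less RNA per cell cannot be told apart.

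**Figure D1:**
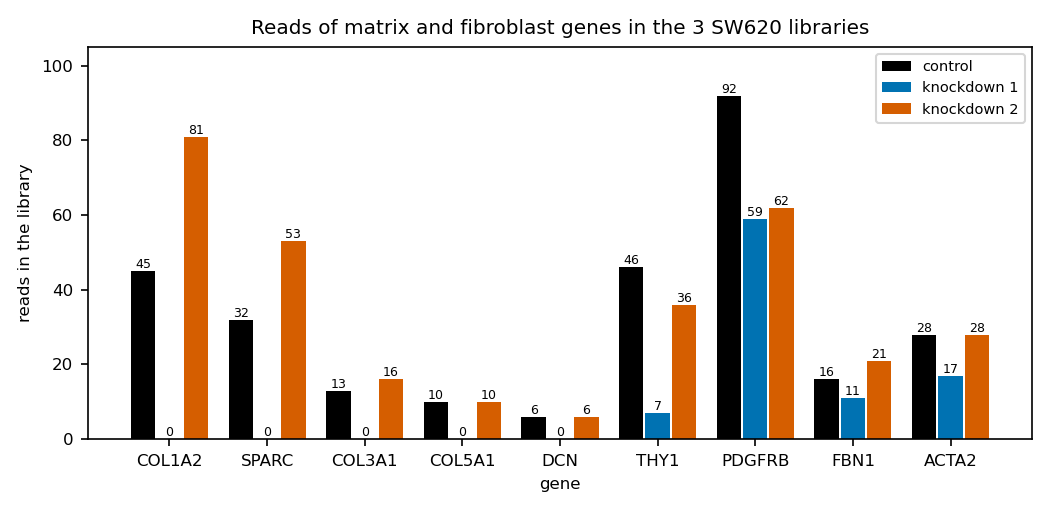
Reads (y axis, whole reads per library) of 9 matrix and fibroblast genes in the SW620 control and the knockdown libraries, 1 bar per library. SPARC, COL1A2, COL3A1, COL5A1 and DCN had 0 reads in knockdown library 1, where PDGFRB still had 59.

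The lines differed in which of these genes they expressed. SW620 had the higher level of vimentin, tenascin C, TGFBI, lumican and S100A4, whereas HCT116 had the higher level of fibronectin, the collagen chains COL1A1 and COL6A1, SNAI1, SNAI3, TWIST1 and SMAD3. For this comparison reads of all libraries were put on a joint scale as CPM, the count after scaling every library to a common total, because each line's table had its own normalization, and log2(CPM + 1) was tested with limma with terms for line and knockdown. Of the 33 genes that passed a filter on low values (1 normalized count or more on average over all libraries), 20 had a limma adjusted p under 0.05, where 47.8% of all 18743 genes tested did. Of these, 9 were higher in SW620 (23.7% of all genes) and 11 were higher in HCT116 (24.1% of all genes). A gene expressed in only 1 line passes the filter through that line, so these counts are a description. Some genes differed by 4-fold or more in CPM + 1, with a limma adjusted p under 0.05. Of these, VIM, TGFBI, S100A4, TNC and LUM were higher in SW620 (4.98% of all genes) and SNAI3, COL1A1 and COL6A1 in HCT116 (6.96%). Adding 1 shrinks the differences of genes with few reads. TWIST1 (mean CPM 2.21 in HCT116 and 0 in SW620), SPOCK1 (3.89 and 0.109) and PDGFRB (0.467 and 3.79) thus fell short of that cut. The 3 libraries of each line did not overlap for 9 genes higher in SW620 (29.8% of all genes) and 12 higher in HCT116 (30.5%). The median difference over the 33 genes was -0.02 and that over all genes 0.00 (log2, SW620 minus HCT116).

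**Figure D2:**
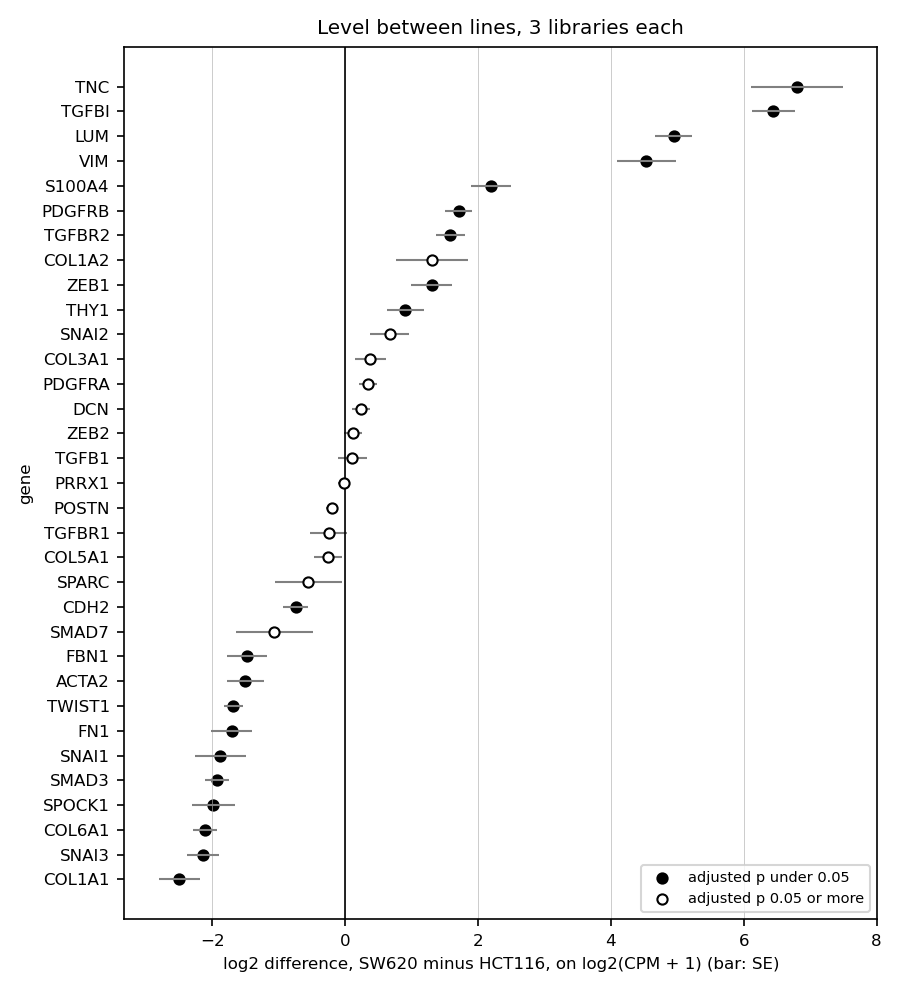
Difference in level between the lines for the 33 tested genes (x axis, log2 difference SW620 minus HCT116 on log2(CPM + 1), from limma over 3 libraries per line), with bars for the SE. Filled points have an adjusted p under 0.05: 9 lie to the right of 0, with TNC at 6.80 and TGFBI at 6.44, and 11 to the left, with COL1A1 at -2.49.

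Levels of different genes were compared per length, as CPM per kilobase of the longest coding transcript (GENCODE 29, GRCh38). On that scale S100A4 was first in both controls, at 87.5 in HCT116 and 710 in SW620. In the HCT116 control it was followed by COL6A1 (64.7), SNAI1 (38.3), SMAD3 (35.7) and TGFB1 (26.8). In the SW620 control it was followed by VIM (99.1), TNC (58.5), TGFBI (49.9) and TGFB1 (39.6). VIM was 14th in HCT116 and TNC 25th, while COL6A1 was 7th and SNAI1 10th in SW620.

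Knockdown of TEAD4 gave no call among these genes. With limma on log2(normalized count + 1), 0 of the 33 genes had an adjusted p under 0.05 over both lines, in HCT116, in SW620 or for the difference between lines, and neither did any of the 18743 genes (0.0%). TEAD4 itself, at a log2 fold change of -2.27 ± 0.25 (SE) over both lines with an unadjusted limma p of 1.9e-05 and an adjusted p of 0.356, missed the threshold too. Over both lines, 831 genes had an unadjusted p under 0.05 by limma, 749 by edgeR and 749 by DESeq2, of which edgeR called 0 and DESeq2 14 after adjustment, with 0 of the 35 genes among them. By limma, 3 of the 33 genes had an unadjusted p under 0.05, namely COL6A1, FN1 and THY1, where 4.43% of all genes did. All 3 were lower (2.71% of all genes) and 0 were higher (1.73%). In HCT116 alone THY1 was the only one (5.53% of all genes, 2.66% lower and 2.87% higher), and in SW620 alone COL6A1 was (1.45%, 0.928% lower and 0.523% higher). For the difference between lines there was none (2.26%, 1.04% higher and 1.22% lower). In HCT116, SW620 and for the difference, the genes with an unadjusted p under 0.05 numbered 1036, 272 and 423 by limma, 875, 248 and 315 by edgeR, and 780, 202 and 270 by DESeq2, which called 17, 7 and 1 after adjustment.

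The sign was more often negative. Over both lines 24 of 33 genes had a negative log2 fold change, against 51.4% of all genes, with a median of -0.50 against -0.01. In HCT116 the count was 22 of 33 (50.1% of all genes) with a median of -0.20, which was -0.09 by edgeR and -0.51 over genes with a mean of at least 10. In SW620 it was 24 of 33 (49.5%) with a median of -0.38, which was -0.17 without SW620 knockdown library 1. Leaving out a control takes away that line's knockdown effect. The fit of both lines then gave the other line's median, -0.38 without the HCT116 control and -0.20 without the SW620 control. Leaving out the genes with 0 reads in SW620 knockdown library 1, the median was -0.50 over both lines and -0.30 in SW620. Per library, the median of the 33 log2 ratios to the control was -0.24 and -0.14 in HCT116 knockdown libraries 1 and 2 and -0.49 and -0.17 in the SW620 ones, where that of all genes was 0. Over both lines, all 4 tested leukocyte markers were negative (median -0.97), as were all 3 endothelial (-1.01) and all 5 other fibroblast markers (-0.57). The 6 tested colon epithelial markers split into 3 negative and 3 positive (median -0.13), and the 20 epithelial genes into 9 and 11 (0.06). Whether the negative lean is particular to the 33 genes was not tested.

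All 4 knockdown libraries stood below their control for FN1, ZEB1, SNAI3, COL6A1, THY1 and PDGFRB (11.6% of all genes), and above it for SNAI2 and TGFBR2 (12.1% of all genes). Within HCT116 both libraries stood below the control for 15 of 33 genes (31.4% of all genes) and above it for 6 (29.7%). Within SW620 they stood below it for 13 (29.9%) and above it for 5 (31.1%). The 2 knockdown libraries of a line differed more for these genes than for genes in general: the median absolute log2 difference between them was 0.85 against 0.55 in HCT116 and 0.74 against 0.28 in SW620, as a description.

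**Figure D3:**
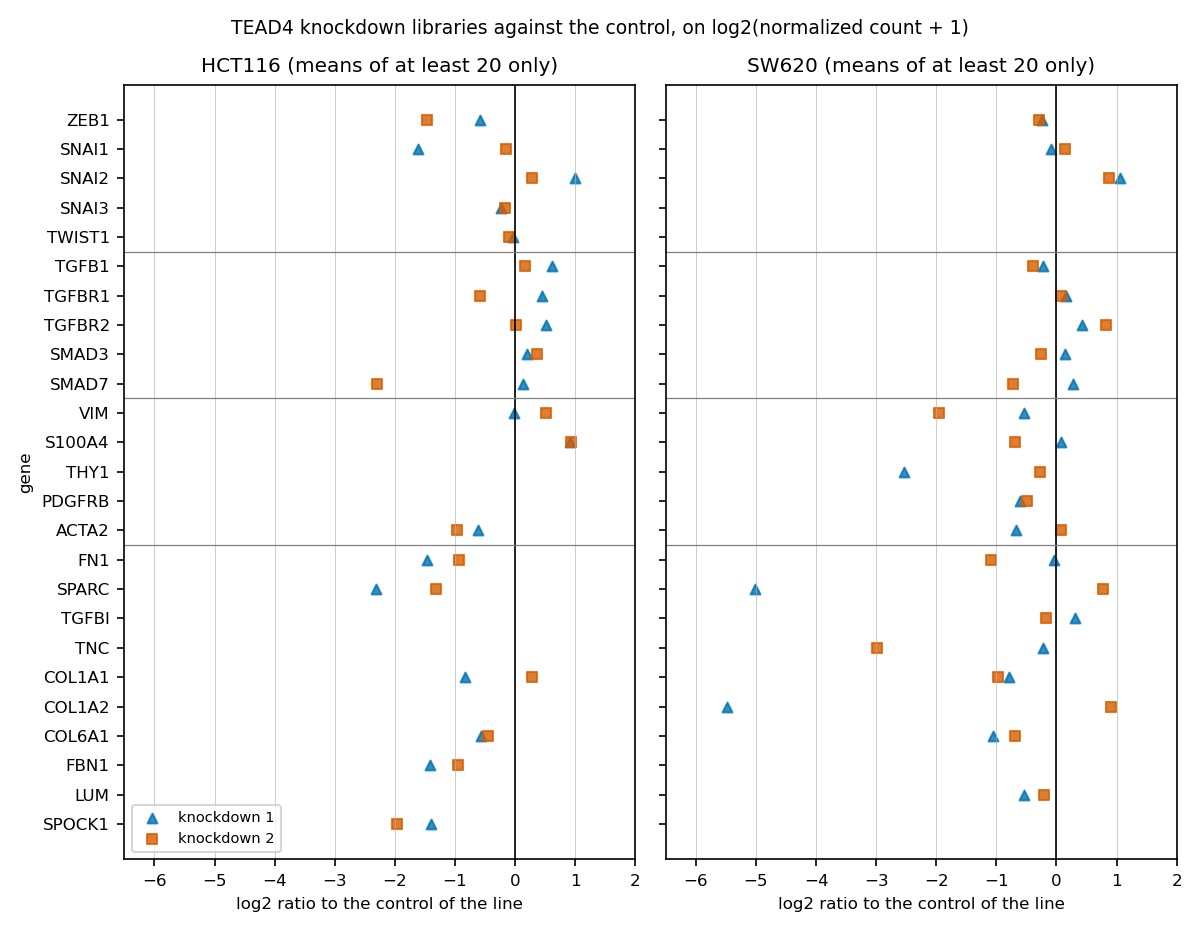
Log2 ratio of each knockdown library to the control of its line (x axis, on log2(normalized count + 1)) for the genes that average 20 normalized counts or more in that line, HCT116 left and SW620 right. SNAI2 lies to the right of 0 in all 4 libraries and FN1 and COL6A1 to the left, while SPARC and COL1A2 lie near -5 in SW620 knockdown library 1 and right of 0 in library 2.

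Among the transcription factors, ZEB1, a zinc finger repressor of E-cadherin, stood at 177, 118 and 63.3 normalized counts in HCT116, and at 400, 340 and 328 in SW620, in the order control, knockdown library 1 and knockdown library 2, which is kept below. It was lowest in HCT116 knockdown library 2, and every SW620 library lay above every HCT116 library. The difference between lines was 1.31 ± 0.31 (SE, log2, limma adjusted p = 0.0109). The adjusted p was 0.0588 without SW620 knockdown library 1 and 0.0552 without SW620 knockdown library 2. ZEB1-AS1, on the opposite strand, stood at 67.6 to 162 normalized counts. Reads from any stretch that both genes share cannot be told apart, because the library kit keeps no strand.

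SNAI1 (Snail), at 1003, 327 and 909 normalized counts in HCT116, was low in knockdown library 1 only. In SW620 it stood at 202, 189 and 223. Levels of the lines did not overlap, and SNAI1 was lower in SW620 by a log2 difference of -1.88 ± 0.39 (SE, limma adjusted p = 0.0060). Without the HCT116 control the adjusted p was 0.0766, without the SW620 control 0.0703, and without HCT116 knockdown library 1 the difference was -2.36.

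SNAI2 (Slug) was the factor that stood above its control in every knockdown library. It went from 51.9 in the HCT116 control to 104.6 and 63.3 in knockdown libraries 1 and 2, and from 91.8 in the SW620 control to 193 and 169. These are 202% and 122% of the control in HCT116 and 210% and 184% in SW620, and the gene had 51 reads in its lowest library. The log2 fold change over both lines was 0.80 ± 0.35 (SE), with a limma p of 0.0505 unadjusted and 0.935 adjusted. The lines differed by 0.67 ± 0.30 (log2, adjusted p = 0.0983, limma), and by 0.83 with an adjusted p of 0.0419 without HCT116 knockdown library 1.

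SNAI3, a further member of the Snail family, stood at 129, 109 and 115 normalized counts in HCT116 and at 23.4, 12.9 and 16.4 in SW620, where it had 13 to 24 reads. The control was the highest library in each line, and the lines differed by -2.14 ± 0.24 (SE, log2, limma adjusted p = 0.00041). SNAI3-AS1, which overlaps it on the opposite strand, stood at 14.4 to 48.8. TWIST1, a basic helix-loop-helix factor, stood at 35.6, 34.6 and 33.2 in HCT116, which hardly differed, and had 0 reads in all SW620 libraries. Against a floor of 3 reads over the 3 SW620 libraries, its 104 HCT116 reads were 41.3-fold higher. The 95% counting interval of the ratio of SW620 to HCT116 ran from 0 to 0.0303. The other factors were at the limit of detection. ZEB2, the close relative of ZEB1, had at most 5 reads in a library, the homeobox factor PRRX1 at most 2 and TWIST2, the relative of TWIST1, at most 1.

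In the TGF-beta pathway, the ligand gene TGFB1 stood at 1153, 1776 and 1290 normalized counts in HCT116 and at 2044, 1758 and 1565 in SW620. Both knockdown libraries were above the control in HCT116 and below it in SW620. The difference between these effects was 0.69 ± 0.43 (SE, log2, HCT116 minus SW620), with a limma p of 0.171 unadjusted and 0.9996 adjusted. HNRNPUL1, which overlaps TGFB1 on the opposite strand, stood at 3343 to 8252. The level of TGFB1 differed by 0.11 ± 0.22 between lines (adjusted p = 0.702, limma), and by -0.12 when the HCT116 or the SW620 control was left out.

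TGFBR1, the type I receptor kinase, stood at 834, 1139 and 559 in HCT116 and at 768, 857 and 814 in SW620, so that the HCT116 range enclosed that of SW620 (difference -0.24 ± 0.28, SE, log2, limma adjusted p = 0.490, and 0.04 without HCT116 knockdown library 1). TGFBR2, the ligand-binding type II receptor, stood at 872, 1248 and 882 in HCT116 and at 2671, 3568 and 4741 in SW620. Each knockdown library was above its control, from 101% of it in HCT116 knockdown library 2 to 177% in SW620 knockdown library 2. SW620 was higher by a log2 difference of 1.58 ± 0.22 (SE, limma adjusted p = 0.00091), and by 1.34 with an adjusted p of 0.0801 from control against control.

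SMAD3, a receptor-activated SMAD, stood at 3467, 4002 and 4467 in HCT116 and at 1260, 1392 and 1049 in SW620, without overlap between lines (-1.93 ± 0.18, SE, log2, limma adjusted p = 0.00017). SMAD7, the inhibitory SMAD, was low in knockdown library 2 of each line. It stood at 346, 378 and 69.7 in HCT116 and at 124, 150 and 74.9 in SW620, so that the lines overlapped. The difference between lines was -1.06 ± 0.58 (adjusted p = 0.167, limma), and -1.78 with an adjusted p of 0.0098 without HCT116 knockdown library 2.

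**Figure D4:**
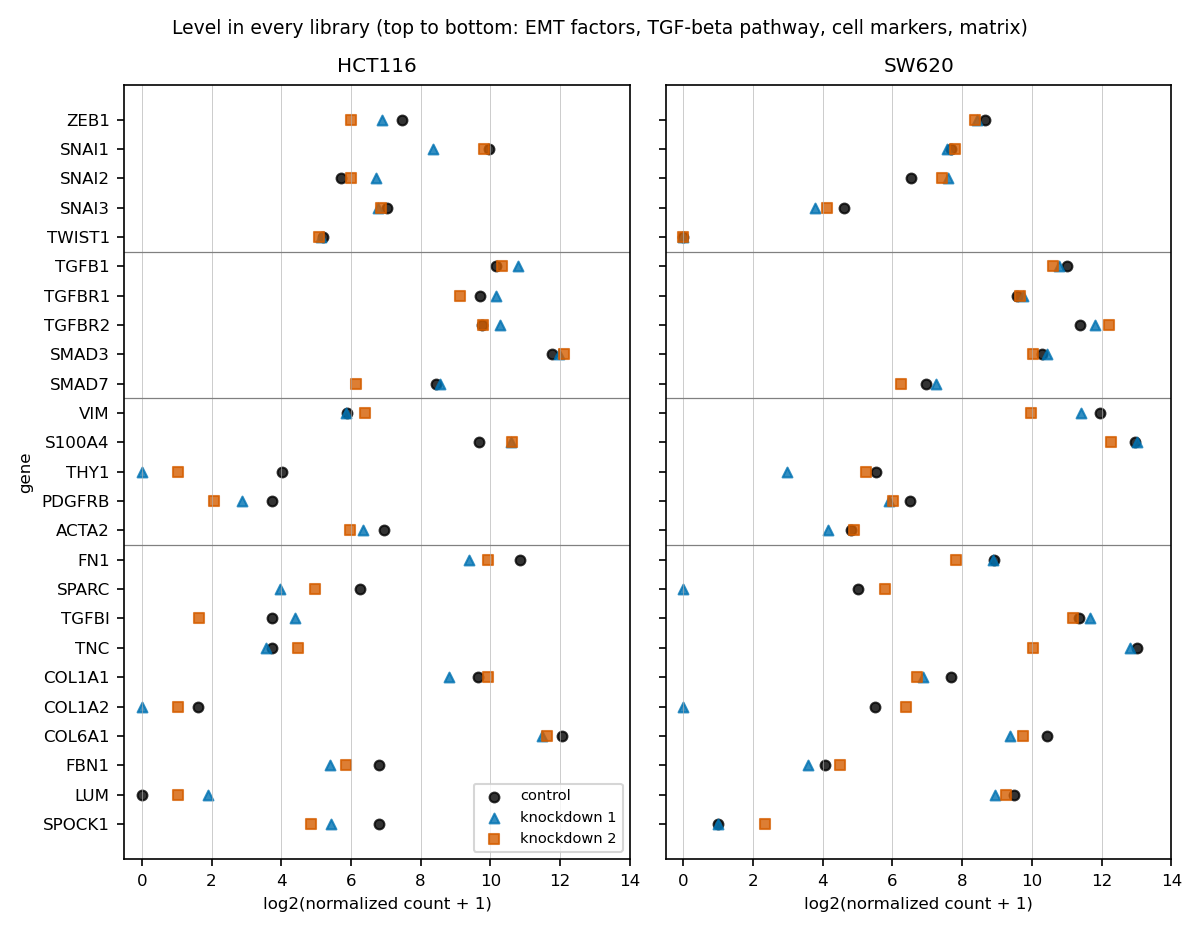
Level of 25 genes in every library (x axis, log2(normalized count + 1)), HCT116 left and SW620 right, with circles for the control and triangles and squares for knockdown libraries 1 and 2. Each line's table had its own normalization; SMAD7 shows 1 low library in each line (knockdown library 2), and TWIST1 lies at 0 in all SW620 libraries.

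Of the cell markers, VIM, the intermediate filament vimentin, stood at 57.9, 57.3 and 83.6 normalized counts in HCT116 and at 3942, 2725 and 1014 in SW620. In SW620 it was at 69.1% and 25.7% of the control in knockdown libraries 1 and 2, while no HCT116 knockdown library was below 98.9%. SW620 exceeded HCT116 by a log2 difference of 4.53 ± 0.44 (SE, limma adjusted p = 0.00021), and by 5.07 without SW620 knockdown library 2. VIM-AS1, on the opposite strand, stood at 0 to 23.4. S100A4, a calcium-binding protein also called FSP1, stood at 815, 1543 and 1557 in HCT116. In SW620 it stood at 7937, 8355 and 4925. Both HCT116 knockdown libraries were at 189% to 191% of the control, and SW620 library 2 was at 62.1%. The lines differed by 2.19 ± 0.30 (SE, log2, adjusted p = 0.00097, limma).

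THY1, a surface glycoprotein of fibroblasts, had 15, 0 and 1 reads in HCT116 and 46, 7 and 36 in SW620. The control was the highest library in each line, with a wide gap between the SW620 knockdown libraries. The ratio of knockdown to control was 0.0323 in HCT116 (95% counting interval 0.000767 to 0.210) and 0.482 in SW620 (0.310 to 0.747), and these intervals cover counting error only. The log2 fold change over both lines was -2.45 ± 0.82 (SE), with a limma p of 0.0178 unadjusted and 0.935 adjusted. It was -1.41 without the HCT116 control, which is the estimate of SW620 alone, and -3.50 without the SW620 control, that of HCT116 alone. THY1 was higher in SW620 by 0.91 ± 0.28 (log2, limma adjusted p = 0.0318), but the adjusted p was 0.127 and 0.119 without the HCT116 or the SW620 control and 0.0842 and 0.0807 without HCT116 knockdown library 1 or 2.

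PDGFRB, the PDGF receptor beta, stood at 12.2, 6.4 and 3.2 normalized counts in HCT116 and at 89.8, 58.3 and 63.6 in SW620. All 4 knockdown libraries were below their control, at 52.2% and 26.4% in HCT116 (7 and 3 reads against 12) and at 64.9% and 70.8% in SW620. SW620 was higher by 1.71 ± 0.20 (SE, log2, limma adjusted p = 0.0005). ACTA2, smooth muscle actin, stood at 123, 80.1 and 62.2 in HCT116 and at 27.3, 16.8 and 28.7 in SW620. Its exons overlap those of FAS on the opposite strand, which stood at 51.4 to 301 normalized counts. HCT116 was higher in ACTA2 (-1.50 ± 0.28, SE, log2, limma adjusted p = 0.0037), with an adjusted p of 0.0568 from control against control.

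Few reads came from the remaining markers. CDH2, N-cadherin, had 12, 7 and 19 reads in HCT116 and 3, 0 and 1 in SW620, where the lines did not overlap (-0.74 ± 0.19, SE, log2(CPM + 1), limma adjusted p = 0.0149). CDH11, a cadherin of mesenchymal cells, had 0 reads in all 6 libraries, and PDGFRA, the PDGF receptor alpha, had at most 9.

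Among matrix genes, FN1 (fibronectin, chr2:215360440-215436172, minus strand, GRCh38) stood at 1841, 666 and 966 normalized counts in HCT116, and at 485, 473 and 227 in SW620. It was at 36.2% and 52.5% of the control in HCT116 and at 97.6% and 46.7% in SW620, so that SW620 knockdown library 1 hardly differed from its control. The log2 fold change over both lines was -0.88 ± 0.34 (SE), a 1.84-fold lower level, with a limma p of 0.0333 unadjusted and 0.935 adjusted. It was -0.57 without the HCT116 control, which is the estimate of SW620 alone, and -1.20 without the SW620 control, that of HCT116 alone. The difference of the effect between lines was -0.63 ± 0.75 (adjusted p = 0.9996, limma). HCT116 had more FN1 than SW620 (-1.70 ± 0.31, log2, adjusted p = 0.0035, limma), though the adjusted p was 0.0530 without the HCT116 control.

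COL6A1 (chr21:45981737-46005050, plus strand, GRCh38), a chain of the microfibrillar type VI collagen, was the gene with the smallest p of the 33. It stood at 4260, 2867 and 3129 in HCT116 and at 1372, 659 and 850 in SW620. The knockdown libraries lay between 48.1% and 73.5% of their control and close to each other within a line. The log2 fold change over both lines was -0.69 ± 0.20 (SE), a 1.61-fold lower level, with a limma p of 0.00955 unadjusted and 0.935 adjusted. Leaving out any 1 library gave values from -0.87 to -0.51. These ends are the estimates of SW620 alone and HCT116 alone, since leaving out a control takes away that line's effect. By edgeR and by DESeq2, COL6A1 and FN1 were also among the genes with an unadjusted p under 0.05 over both lines. The level between lines differed by -2.11 ± 0.18 (adjusted p = 0.00011, limma), higher in HCT116.

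The type I collagen chains were expressed unequally. COL1A1 stood at 806, 452 and 982 in HCT116 and at 203, 117 and 103 in SW620, with both knockdown libraries below the control in SW620 only. COL1A2 had 2, 0 and 1 reads in HCT116 and 45, 0 and 81 in SW620, and the triple helix of type I collagen normally holds both chains. COL1A1 was higher in HCT116 (-2.49 ± 0.31, SE, log2, limma adjusted p = 0.00065), with an adjusted p of 0.0668 from control against control. COL1A2 did not pass (1.31 ± 0.54, limma adjusted p = 0.0826) but stood at 2.05 with an adjusted p of 0.0021 without SW620 knockdown library 1. COL3A1 and COL5A1 encode chains of further fibrillar collagens. COL3A1 had 13, 0 and 16 reads in SW620 and at most 3 in HCT116, and COL5A1 had 17, 10 and 3 in HCT116 and 10, 0 and 10 in SW620.

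SPARC, a collagen-binding matricellular protein, stood at 76.2, 14.6 and 30.0 normalized counts in HCT116, where the knockdown libraries were at 19.1% and 39.4%. The SW620 libraries had 31.2, 0 and 54.4. HCT116 libraries thus lay below their control, while the SW620 ones lay on both sides of it. Its level between lines differed by -0.55 ± 0.50 (SE, log2, limma adjusted p = 0.388), and by -1.20 with an adjusted p of 0.0212 without SW620 knockdown library 2. FBN1, the microfibril protein fibrillin-1, stood at 111, 41.0 and 56.8 in HCT116 and at 15.6, 10.9 and 21.5 in SW620. It was lower in the HCT116 knockdown libraries than in their control, with 45 and 53 reads against 109, and showed no common direction in SW620. HCT116 was higher in FBN1 (-1.48 ± 0.30, log2, adjusted p = 0.0056, limma), with an adjusted p of 0.0548 without the SW620 control. SPOCK1, a secreted proteoglycan, stood at 112, 41.9 and 27.9 in HCT116 and had at most 4 reads in SW620 (-1.98 ± 0.32, SE, log2, limma adjusted p = 0.0021).

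The 6 fibroblast markers outside the 35 genes summed to 764 normalized counts in the HCT116 control and 393 and 484 in the knockdown libraries, and 1444, 824 and 741 in SW620, of which FBLN1 made up most. From 1 to 4 of the 6 were at 0 in a library. FAP, PDPN, MFAP5 and CD248 had at most 4 reads in any library, while COL6A3 had 5 to 89 and FBLN1 396 to 1440. Leukocyte markers summed to 1162, 270 and 1113 in HCT116 and to 188, 129 and 136 in SW620, mostly from CD68, and the 5 endothelial markers to 16.4 to 56.4. Colon epithelial markers summed to 59855 to 102563, mostly from KRT8. The part of these levels in the matrix results was not tested.

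The promoters of FN1, SPARC and FBN1 are shown because these matrix genes stood below the control in both HCT116 knockdown libraries and are in the RefSeq promoter table used here, which holds 22 of the 35 genes. The window is the 250 bases before the start that RefSeq annotates (GRCh38.p14), read 5′ to 3′ on the minus strand, on which all 3 genes lie: chr2:215436069-215436318 for FN1, chr5:151686916-151687165 for SPARC and chr15:48644971-48645220 for FBN1. The genes by their GRCh38 coordinates reach into these windows. The upper end of FN1 is 215436172, within its window, that of SPARC 151687165, the edge of its window, and that of FBN1 48645849, beyond its window. Capitals mark the letters GGAATG or their reverse complement CATTCC, the core recognised by TEAD factors.
FN1: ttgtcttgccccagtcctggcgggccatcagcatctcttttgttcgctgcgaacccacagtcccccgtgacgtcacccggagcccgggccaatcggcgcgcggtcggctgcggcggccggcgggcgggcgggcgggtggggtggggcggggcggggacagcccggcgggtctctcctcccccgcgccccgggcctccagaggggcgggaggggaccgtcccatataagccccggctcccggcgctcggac
SPARC: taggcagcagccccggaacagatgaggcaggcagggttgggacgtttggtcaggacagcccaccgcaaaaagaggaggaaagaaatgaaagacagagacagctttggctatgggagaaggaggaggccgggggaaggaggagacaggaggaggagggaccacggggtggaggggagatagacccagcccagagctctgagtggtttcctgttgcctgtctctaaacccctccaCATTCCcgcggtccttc
FBN1: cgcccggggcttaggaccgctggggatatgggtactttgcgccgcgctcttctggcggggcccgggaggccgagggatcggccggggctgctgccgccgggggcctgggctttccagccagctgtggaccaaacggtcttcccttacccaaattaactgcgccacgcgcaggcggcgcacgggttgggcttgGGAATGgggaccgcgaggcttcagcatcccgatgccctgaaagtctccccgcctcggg
In SPARC the letters begin 17 bases before the start and in FBN1 58 bases before it, and the FN1 window does not hold them. These letters were found in 4 of the 46 windows of the 22 genes (ACTA2, FBN1, SPARC and TGFBR1) and in 11.9% of all 35116 windows of this length. The E-box letters CACCTG or CAGGTG were in 8 of the 46 windows (17.5% of all windows) and the AP-1 letters TGANTCA in 4 (6.57%). The 3 windows shown hold neither of these. A match is a description of the sequence and not a binding site.

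Some matrix genes were high in SW620 only. TNC, the matricellular glycoprotein tenascin C, stood at 12.2, 10.9 and 21.4 normalized counts in HCT116 and at 8325, 7154 and 1048 in SW620. It was at 85.9% of the control in SW620 knockdown library 1 and at 12.6% in library 2, the library in which VIM was also lowest. The lines differed by 6.80 ± 0.69 (SE, log2, limma adjusted p = 0.00026), with values from 6.18 to 7.75 when 1 library was left out. TGFBI, a TGF-beta-induced matrix protein, stood at 12.2, 20.02 and 2.1 in HCT116 and at 2606, 3234 and 2313 in SW620, where the knockdown libraries lay on both sides of the control. Its difference between lines was 6.44 ± 0.32 (SE, log2, limma adjusted p = 2.1e-05).

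LUM, lumican, a small leucine-rich proteoglycan of collagen fibrils, had 4 reads in all HCT116 libraries together and 732, 495 and 602 in SW620. Its ratio of SW620 to HCT116 was 384 (95% counting interval 150 to 1410). DCN, decorin, of the same family and close by on chromosome 12, had 6, 0 and 6 reads in SW620 and 1 read in HCT116. POSTN, periostin, had 2, 2 and 3 reads in HCT116 and 0 in SW620.

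Other genes of the pathway and of EMT gave 0 adjusted calls with knockdown (0.0% of all genes), and at an unadjusted limma p under 0.05 over both lines 2.71% of all genes were lower and 1.73% higher. Of 24 further TGF-beta pathway genes, 13 had a negative and 11 a positive log2 fold change over both lines (median -0.04), and 3 had an unadjusted limma p under 0.05, all lower. BMPR2, a type II receptor for bone morphogenetic proteins, stood at 1242, 884 and 681 normalized counts in HCT116 and at 1393, 718 and 571 in SW620, so that all 4 knockdown libraries were below their control. Its log2 fold change was -0.90 ± 0.23 (SE), with a limma p of 0.0044 unadjusted and 0.935 adjusted. TGFBR3, the co-receptor betaglycan, stood at 883, 432 and 710 in HCT116 and at 933, 723 and 508 in SW620 (-0.65 ± 0.27, log2 fold change ± SE). LTBP3, a latent TGF-beta binding protein, stood at 3341, 2583 and 2534 in HCT116 and at 3394, 2359 and 1225 in SW620 (-0.69 ± 0.29).

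Of 12 TGF-beta target genes, 8 were negative and 4 positive (median -0.15). Of 21 tested genes among 23 other mesenchymal and EMT-linked ones, 15 were negative and 6 positive (median -0.30). The lines differed in this: in HCT116 8 were negative and 13 positive (median 0.13), and in SW620 18 and 3 (median -0.72). In this list SERPINE2, protease nexin 1, stood at -1.13 ± 0.45 (log2 fold change ± SE) and the transcription factor ETS1 at -0.71 ± 0.30, and 1 gene was higher at an unadjusted limma p under 0.05. That gene was FSCN1, the actin bundler fascin, at 5659, 10701 and 13677 in HCT116 and 3414, 4032 and 4873 in SW620. Of 20 epithelial genes, 11 were positive and 9 negative (median 0.06), and 0 had an unadjusted limma p under 0.05.

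Between lines, 24.1% of all genes were higher in HCT116 and 23.7% in SW620 at a limma adjusted p under 0.05. Of the 20 epithelial genes, 13 were higher in HCT116 and 1 in SW620 at that threshold. OVOL1, a zinc finger factor of epithelia, stood at 258, 831 and 592 normalized counts in HCT116 and at 2.9, 3.0 and 4.1 in SW620. Of the other mesenchymal and EMT-linked genes 11 were higher in HCT116 and 1 in SW620, and of the TGF-beta targets 7 and 3. The further pathway genes split into 10 and 7. Among them SMAD4, the common partner of receptor-activated SMADs, named after its values were seen, stood at 1191, 1267 and 1232 in HCT116 and at 36.1, 31.6 and 60.5 in SW620.

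The authors' deposited table gave an adjusted p for 34 of the 35 genes in HCT116 and for 21 in SW620, and called 0 of these. In it the smallest p among them was that of FN1 in HCT116, with a shrunken log2 fold change of -0.84 and a p of 0.0376, and that of COL6A1 in SW620, with -0.54 and a p of 0.0108. The authors' deposited table gave both an adjusted p of 0.9999 or more. For TEAD4 itself the authors' test gave an adjusted p of 0.432 in HCT116 and 1.9e-05 in SW620. The share of all genes that the authors' test called is not given here.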

How the data were processed

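The 6 libraries came from RNA extracted with Trizol and were prepared with the TruSeq RNA kit, which keeps no strand, per the labels' protocols. The authors deposited 1 table per line with a signal per library, the normalized count, and with their own shrunken log2 fold change, its standard error, the score of their test, and p-values with and without adjustment, per the file headers. The submitters' processing notes name Bowtie 0.12.2 and hg18, with no role. Neither gene counter nor annotation was given in the sources used here. Multiplying each library by 1 size factor gave whole reads for 100% of values within 1e-06. Features with date-like names (28, with 0.232% to 0.262% of reads) were left out.

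Genes averaging 1 normalized count or more were tested with limma 3.58.1 in R 4.3.3 (eBayes with trend, log2(normalized count + 1), two-sided, Benjamini-Hochberg over all genes tested, threshold 0.05). Fold changes on this scale understate those of low genes. Both lines were fitted with terms for line and knockdown. Each line and the difference between lines came from a model of 4 groups, in which a lone control is taken to vary as the knockdown pairs do. The line comparison used log2(CPM + 1) with TMM over the recovered reads. The code was tested on simulated data. edgeR 4.0.16 and DESeq2 1.42.0 on the recovered reads, other pseudocounts, filters and scalings, each library left out in turn and a replicate block were alternatives. No knockdown library was a duplicate, as counts within each pair differed beyond sampling noise. The numbers 1 and 2 come from the deposited columns, and the labels' letters were not matched to them.

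The genes and lists were chosen with earlier results of these data known. Values per library are given for genes averaging 20 normalized counts or more in 1 or both lines (25 of 35), the others by reads. From each other list, those with the smallest limma p over both lines are named, up to 4. CDH1, EPCAM, GRHL2, RAB25, CLDN7, OVOL2, SMAD4 and the cell type markers were named outside this rule. A gene that this rule names among the TGF-beta targets is not reported here.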

Additional observations from a re-analysis of the deposited data

Results flagged for a closer look

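TGFB1 was picked out because both knockdown libraries lay above the control in HCT116 and both below it in SW620. The difference between the effects was 0.69 ± 0.43 (SE, log2, HCT116 minus SW620), with a limma p of 0.171 unadjusted and 0.9996 adjusted over all genes, so it did not pass. HCT116 knockdown libraries 1 and 2 stood at 154% and 112% of the control, and the SW620 ones at 86.0% and 76.6%.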

How the results depend on the processing

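No gene was called in a knockdown comparison by limma as reported. DESeq2 called 14 genes over both lines, 17 in HCT116, 7 in SW620 and 1 for the difference, and limma with no filter called 545 in HCT116, with 0 of the 35 genes among any of them. The cause was not tested. The log2 fold changes of COL6A1, FN1 and THY1, of TEAD4, and of BMPR2, TGFBR3, LTBP3, SERPINE2, ETS1 and FSCN1 kept their sign under every alternative run.

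Between lines, 3156 genes and 12 of the 35 were called from control against control, where each line rests on 1 library and FN1, ZEB1, SNAI1, TGFBR2, COL1A1, THY1 and ACTA2, of the 25 genes given by library, no longer passed. COL1A2 passed by edgeR (adjusted p = 0.0297) and DESeq2 (adjusted p = 0.0043), and SMAD7 by DESeq2 (adjusted p = 0.0333). Leaving out 1 library gave 5342 to 10389 genes and 16 to 21 of the 35, with differences from -0.12 to 0.32 for TGFB1 and from -0.57 to 0.040 for TGFBR1. With the numbers of the columns as a replicate block, 8763 genes and 22 of the 35 were called, SMAD7 (adjusted p = 0.0465, limma) and COL1A2 (adjusted p = 0.0206) being added. Deviations of same-numbered knockdown libraries had a correlation of -0.10 across genes, which does not show a pairing by number. As it compares different lines, it cannot exclude such a pairing. Knockdown effects have no paired fit, since control and knockdown libraries share no number.

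Genes with few reads, such as THY1 in HCT116, rest on 0 to 15 reads, and 10 of the 35 genes had at most 19 reads in any library.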
